A study of Mus musculus with 18 samples.

Results

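Transcripts of cytoplasmic dynein, dynactin and the adaptor Bicd1 were followed in single mouse oocytes before and after maturation in vitro. The 10 genes were taken by symbol from the 47069 genes listed for each oocyte: Dync1h1, Dync1i2, Dync1li1, Dync1li2, Dynll1, Dynll2, Dynlrb1, Dctn1, Dctn2 and Bicd1. All 10 had a count in at least 5 of the 18 oocytes, and 9 passed the filter on low counts that left 12037 genes. Dync1h1 was the member that did not pass.

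The oocytes came from wild type C57BL/6 mice aged 6 weeks (6wk) or 12 months (12m), with 3 oocytes in each of 6 groups. GV-6wk and GV-12m were germinal vesicle oocytes, which are arrested in prophase of the first meiotic division, and they had no MSC co-culture. IVM-MII-6wk and IVM-MII-12m were oocytes matured in vitro to metaphase II without MSC. MSC-IVM-MII-6wk and MSC-IVM-MII-12m were matured in vitro with MSC, overnight as the series' design text has it; the labels do not spell out MSC. After gentle lysis of the single cell the nucleus was pelleted, and a SMART-seq2 library was made from the supernatant. The values therefore describe RNA of that supernatant. Metaphase II oocytes hold no germinal vesicle, and the part of this step in differences between the stages was not tested. No label names the animal or culture of an oocyte. Each group therefore counts as 1 sample, oocytes are not replicates, and the differences below are described by their size and by the spread over oocytes, without a test.

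Cytoplasmic dynein-1 is the motor that walks toward the minus ends of microtubules. Its heavy chains hold the motor domains, the intermediate and light intermediate chains hang cargo and regulators on them, and the light chains bind as dimers to the intermediate chains. Dynactin is the partner complex that makes dynein processive, and adaptors such as the Bicaudal D proteins join both to a cargo. In oocytes, dynein is known for work at spindle poles and kinetochores during the meiotic divisions. Transcripts stored in the growing oocyte are in part degraded between the germinal vesicle and metaphase II, while transcription is silent.

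Levels per oocyte are given as CPM, counts scaled by TMM to a common library size, and levels between genes as the deposited TPM, which divides by transcript length. Library totals ran from 1914072 to 9193559 counts. GV oocytes had counts for 13046 to 16036 genes and metaphase II oocytes for 8612 to 13117. Mitochondrially encoded genes took 0.92% to 3.70% of counts in GV oocytes and 6.04% to 14.9% in 10 of the 12 metaphase II oocytes. The other metaphase II oocytes, IVM-MII-6wk oocyte 1 and MSC-IVM-MII-6wk oocyte 1, had 3.22% and 3.03% and share a title prefix. The part of this share in the differences between stages was not tested beyond scaling without these genes. Between 11 and 12 of 12 oocyte markers had counts in every library. Markers of cumulus and granulosa cells, the somatic cells around an oocyte, summed to 73.7 to 254 CPM in 5 of the 6 GV oocytes and to 2493 CPM in GV-12m oocyte 3, with 16 of 20 markers present there. In metaphase II oocytes they summed to at most 80.5 CPM with at most 7 of the 20 markers present. Markers of mesenchymal stromal cells summed to at most 16.0 CPM in any oocyte, with at most 7 of 12 present, and 3 of the 12 were at 0 in every library. Fewer or more RNA molecules per oocyte cannot be read from such values, since each library is scaled to its own total. SMART-seq2 also primes on poly(A) tails, and the part of tail length in differences between the stages was not tested.

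The light chains Dynll1 and Dynlrb1 made up nearly all of the members' transcripts in germinal vesicle oocytes. In GV-6wk the mean TPM was 1123 ± 393 (SD, n = 3 oocytes) for Dynll1 and 774 ± 92.3 for Dynlrb1, which was 56.1% and 38.7% of the 10 genes' summed TPM of 1999.7. The intermediate chain gene Dync1i2 followed at 40.6 ± 21.6 TPM, then Dctn2 at 32.3 ± 6.02 and Dynll2 at 23.9 ± 6.62. The light intermediate chain genes, Dctn1 and the heavy chain gene were each under 3 TPM on average. GV-12m had nearly the same make-up, with 56.6% for Dynll1 and 39.0% for Dynlrb1.

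After maturation the summed TPM of the 10 genes was 210 in IVM-MII-6wk, 282 in MSC-IVM-MII-6wk, 409 in IVM-MII-12m and 300.7 in MSC-IVM-MII-12m. Dync1i2 then made up 33.9% and 35.3% of it in the 6wk groups, and 20.4% and 14.3% in the 12m groups. Dynlrb1 came to between 10.4% and 20.6% in these groups. Dynll1 remained the highest of the 10 in each group by its mean TPM.

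**Figure D1:**
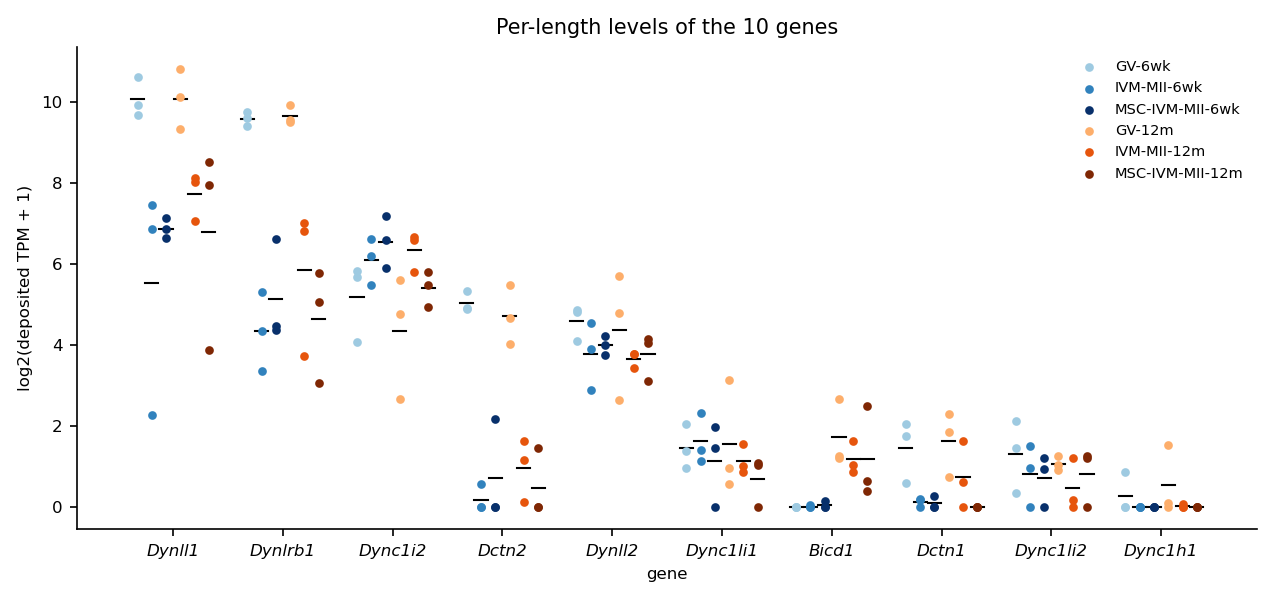
Deposited TPM of the 10 genes on a log2(TPM + 1) axis, with genes ordered by their highest group mean; each point is 1 oocyte, each black bar the mean of 3, and colours mark the 6 groups. Dynll1 and Dynlrb1 stand highest in both GV groups and Dync1h1 lies near 0 in all but a few oocytes.

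Dync1h1, on chromosome 12 (110601452 to 110666945, plus strand, GRCm38), encodes the heavy chain that carries the motor. It was barely detected. Of 18 oocytes, 5 had any count: 12 counts (2.92 CPM) in GV-6wk oocyte 2, then 1 count (0.223 CPM), 11 counts (1.38 CPM) and 131 counts (19.8 CPM) in GV-12m oocytes 1, 2 and 3, and 4 counts (0.849 CPM) in IVM-MII-12m oocyte 3. All of the remaining 13 oocytes were at 0. The highest value thus came from the 1 oocyte with the high granulosa markers, whose part in it was not tested.

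The deposited length of Dync1h1 equalled that of its coding transcript Dync1h1-201, 14342 bases, in 4 of those 5 oocytes. Of the 418 coding genes with a principal transcript over 10 kb, 65.3% passed the filter, against 51.5% of those of 1 to 5 kb; the part of transcript length in the low counts of Dync1h1 was not tested. Between IVM-MII-12m and GV-12m the difference for Dync1h1 was -1.68 on the log2(CPM + 1) scale, and without GV-12m oocyte 3 it was -0.48. The 3 genes with the most similar pattern over the 18 oocytes were St3gal4, a sialyltransferase gene (Pearson r = 0.84), Fos, an immediate early transcription factor gene (0.79), and Nap1l5 (0.79), among 5761 genes searched. For these genes the highest single oocyte had 57.4 CPM, 311 CPM and 165 CPM, so the likeness is shaped by few points.

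Dync1i2 encodes the intermediate chain that docks dynactin, and lies on chromosome 2 (71211706 to 71263303, plus strand). Unlike the light chains, it took a larger part of the library after maturation. GV-6wk oocytes had 123, 106 and 46.1 CPM, IVM-MII-6wk 177, 162 and 101.1, and MSC-IVM-MII-6wk 246, 183 and 144. GV-12m oocytes had 21.2, 74.7 and 74.8 CPM, IVM-MII-12m 199, 168 and 232, and MSC-IVM-MII-12m 71.8, 128 and 99.0. All 3 IVM-MII-12m oocytes thus lay above all 3 of GV-12m, and the 3 MSC-IVM-MII-6wk oocytes above those of GV-6wk.

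On the log2(CPM + 1) scale Dync1i2 was higher by 1.98 in IVM-MII-12m than in GV-12m, a 3.51-fold ratio of mean CPM, and every leave-one-out value lay between 1.39 and 2.28. In IVM-MII-6wk it was higher by 0.75 than in GV-6wk, with overlapping oocytes. With MSC the difference from GV was 1.13 at 6wk and 0.96 at 12m. The 6wk value dropped to 0.94 without MSC-IVM-MII-6wk oocyte 1 and to 0.70 without GV-6wk oocyte 3, and within title prefixes the 12m value was 0.26. These prefixes, 5 in all, are the first letters and digits of the sample titles; the labels do not say what they stand for, and none is shared by both ages.

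Dync1i2 also separated the 2 kinds of matured 12m oocyte. It was lower by 1.02 in MSC-IVM-MII-12m than in IVM-MII-12m, with 99.6 ± 28.0 against 199.8 ± 32.3 CPM (SD, n = 3 oocytes each), a 2.01-fold difference with no overlap. It was -1.19 within title prefixes. Leaving out MSC-IVM-MII-12m oocyte 1 or IVM-MII-12m oocyte 3 brought it to -0.81 and -0.91, inside the limit of 1 that marks a member as past the fold here. At 6wk the same comparison gave 0.39 in the other direction, with overlapping oocytes, and the difference between the ages was not tested.

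The light intermediate chain genes Dync1li1, on chromosome 9, and Dync1li2, on chromosome 8, were low throughout. Their products link the motor to adaptors. Dync1li1 ran from 0 to 13.5 CPM and Dync1li2 from 0 to 19.2 CPM over the 18 oocytes, with 356 and 394 counts in all. Both had overlapping oocytes between GV and matured groups in each of the 4 comparisons. Dync1li1 was lower by 1.25 in MSC-IVM-MII-12m than in GV-12m, and its highest oocyte was again GV-12m oocyte 3; without it the difference was -0.56, and without MSC-IVM-MII-12m oocyte 1 it was -0.65. Between the matured 12m groups Dync1li1 did not overlap, with 0 to 2.57 CPM with MSC and 2.60 to 4.67 without, but the gap is narrow and the difference was -0.89. Dync1li2 was lower by 1.49 in IVM-MII-12m than in GV-12m (-0.85 without IVM-MII-12m oocyte 1) and by 1.18 in MSC-IVM-MII-6wk than in GV-6wk (-0.36 without MSC-IVM-MII-6wk oocyte 2, -0.42 without GV-6wk oocyte 3).

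Dynll1, the light chain known as LC8, which also serves as a dimerization hub for many other proteins, lies on chromosome 5 (115297110 to 115300999, minus strand). It was the most abundant member and was much lower after maturation. GV-6wk oocytes had 632, 431 and 1190.1 CPM, and GV-12m oocytes 2118, 995 and 319. IVM-MII-6wk oocytes had 3.38, 107 and 82.8 CPM and MSC-IVM-MII-6wk oocytes 60.4, 109 and 80.1. IVM-MII-12m oocytes had 193, 122 and 201 CPM and MSC-IVM-MII-12m oocytes 177, 7.91 and 255. Every GV oocyte lay above every metaphase II oocyte.

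The mean CPM of Dynll1 was 11.7-fold lower in IVM-MII-6wk than in GV-6wk and 6.66-fold lower in IVM-MII-12m than in GV-12m, with differences of -4.33 and -2.38 on the log2(CPM + 1) scale. The first of these was -2.85 without IVM-MII-6wk oocyte 1. With MSC the ratios were 9.02-fold and 7.81-fold, with differences of -3.07 and -3.57, the latter -2.04 without MSC-IVM-MII-12m oocyte 2. Within title prefixes the 4 differences were -5.27, -1.68, -3.37 and -2.62, in the order just given. Dynll1 has processed pseudogenes, between which the counting could split reads, so its exact level is uncertain.

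A pair of matured oocytes set what could be said about MSC and Dynll1. IVM-MII-6wk oocyte 1 had 3.38 CPM and MSC-IVM-MII-12m oocyte 2 had 7.91 CPM, while the other 10 metaphase II oocytes had 60.4 to 255 CPM. MSC-IVM-MII-6wk was higher than IVM-MII-6wk by 1.26, but lower by 0.22 without the first of these oocytes. MSC-IVM-MII-12m was lower than IVM-MII-12m by 1.19, but higher by 0.34 without the second. The mean CPM ratios were 1.29 and 1.17. No direction for MSC can be read from these values.

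Both oocytes also stood apart in library make-up. The share of counts from genes with a principal transcript over 5 kb was 12.4% in IVM-MII-6wk oocyte 1, 13.7% in MSC-IVM-MII-12m oocyte 2 and 11.1% in MSC-IVM-MII-6wk oocyte 1, against 5.81% to 8.16% in the other 9 metaphase II oocytes. In GV oocytes it was 4.33% to 9.11%. Over the 12 metaphase II oocytes the Pearson correlation of Dynll1 with this share was -0.83, and over the 6 GV oocytes -0.88. For Dynlrb1 it was -0.45 and -0.90, for Dynll2 -0.74 and 0.19, and for Dync1i2 0.12 and 0.46. These are descriptions chosen after the values had been seen, the points share their library totals, and the part of library make-up in the light chain values was not tested.

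**Figure D2:**
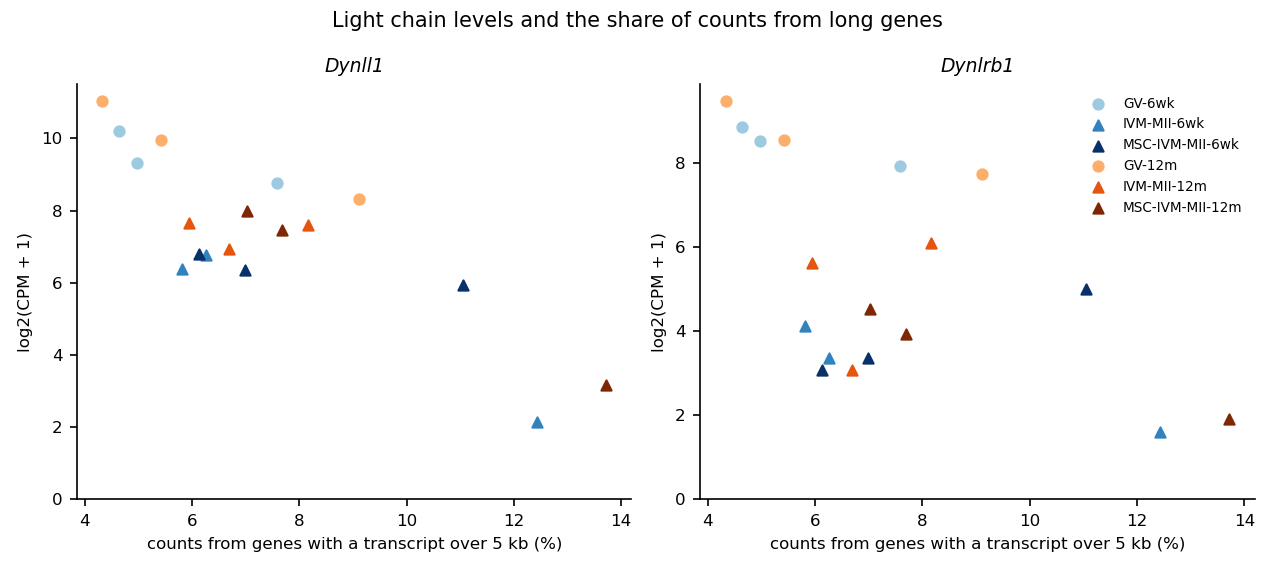
Dynll1 (left) and Dynlrb1 (right) as log2(CPM + 1) against the percent of counts from genes with a principal transcript over 5 kb; each point is 1 oocyte, circles are GV and triangles metaphase II. The GV oocytes lie above the metaphase II oocytes at the same share, and the 2 lowest Dynll1 values sit at shares of 12.4% and 13.7%.

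The pattern of Dynll1 was shared closely by other genes. Of 5761 genes, the 3 most alike over the 18 oocytes were Sdhb, a subunit of succinate dehydrogenase (r = 0.97), Amn1 (0.97) and Pradc1 (0.96). Sdhb had a mean of 219.8 CPM in GV-6wk and 296 in GV-12m, against 7.82 to 60.2 in the 4 metaphase II groups. All 3 were picked for their likeness to Dynll1 in the same oocytes, so their high correlations follow from that choice.

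Dynll2, the second LC8 gene, on chromosome 11, had smaller differences than Dynll1. Its group means were 58.8 ± 26.0 CPM in GV-6wk, 59.4 ± 33.9 in GV-12m and 30.0 to 33.1 in the 4 metaphase II groups, and oocytes of each neighbouring pair of groups overlapped. None of its 9 differences reached the limit of 1, the nearest being -0.95 between IVM-MII-6wk and GV-6wk. Without GV-12m oocyte 1 the 12m differences from GV were -1.34 and -1.44 for IVM-MII and MSC-IVM-MII, and without GV-6wk oocyte 2 the 6wk ones were -1.37 and -1.16. Within title prefixes 3 of the 4 differences from GV passed the limit, at -1.39 and -1.45 for IVM-MII at 6wk and 12m and -1.33 for MSC-IVM-MII at 12m, and the 6wk one with MSC was -0.96.

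Dynlrb1 encodes the roadblock light chain and lies on chromosome 2 (155236533 to 155250277, plus strand). GV-6wk oocytes had 365, 244 and 462 CPM and GV-12m oocytes 709, 370.4 and 213. IVM-MII-6wk oocytes had 2.03, 9.32 and 16.3 CPM, and MSC-IVM-MII-6wk oocytes 30.8, 7.35 and 9.32. IVM-MII-12m oocytes had 67.7, 7.41 and 48.4 CPM, and MSC-IVM-MII-12m oocytes 14.3, 2.78 and 22.2. The GV and metaphase II oocytes did not overlap.

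Its mean CPM was 38.8-fold lower in IVM-MII-6wk and 22.5-fold lower in MSC-IVM-MII-6wk than in GV-6wk, and 10.5-fold and 33.0-fold lower in the matching 12m groups. The differences were -5.41, -4.63, -3.65 and -5.12 on the log2(CPM + 1) scale. MSC-IVM-MII-12m was lower than IVM-MII-12m by 1.47, with overlapping oocytes; without MSC-IVM-MII-12m oocyte 2 the value was -0.70, and without IVM-MII-12m oocyte 1 it was -0.89. In the 6wk oocytes this comparison gave 0.78.

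Dctn2, on chromosome 10 (127266368 to 127281950, plus strand), encodes dynamitin, the dynactin subunit that holds the shoulder of the complex to its filament. Its CPM was far lower in every metaphase II oocyte than in any GV oocyte. GV-6wk oocytes had 52.7, 54.2 and 61.4 CPM and GV-12m oocytes 72.0, 32.2 and 52.4. Of the 12 metaphase II oocytes, 6 had a count: 0.856 CPM in IVM-MII-6wk oocyte 3, 4.44 in MSC-IVM-MII-6wk oocyte 1, 4.24, 0.200 and 2.12 in the IVM-MII-12m oocytes and 2.92 in MSC-IVM-MII-12m oocyte 2. The highest of these was below the lowest GV oocyte by a wide margin.

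From 592 counts in GV-6wk and 3 counts in IVM-MII-6wk, the ratio of Dctn2 scaled by library was 207. Its exact 95% interval, 70.4 to 1006, treats reads as independent and leaves out amplification and the spread over oocytes. The ratio of mean CPM was 37.9 for MSC-IVM-MII-6wk, 23.9 for IVM-MII-12m and 53.7 for MSC-IVM-MII-12m, each against GV of the same age. The 4 differences ran from -5.53 to -4.23 on the log2(CPM + 1) scale. They stayed at -3.64 or lower in each leave-one-out run.

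Dctn1, on chromosome 6 (83165920 to 83200117, plus strand), encodes p150Glued, the subunit that binds microtubules and the dynein intermediate chain. GV-6wk oocytes had 5.64, 8.03 and 2.48 CPM and GV-12m oocytes 4.68, 9.43 and 11.1. IVM-MII-6wk oocytes had 0.451, 0.621 and 0 CPM, and MSC-IVM-MII-6wk oocytes 0.634, 0 and 0. IVM-MII-12m oocytes had 2.42, 11.0 and 0 CPM, and all 3 of MSC-IVM-MII-12m were at 0. Only IVM-MII-12m overlapped with the GV oocytes of its age.

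Against GV of the same age, Dctn1 differed by -2.16 in IVM-MII-6wk, by -2.33 in MSC-IVM-MII-6wk and by -3.16 in MSC-IVM-MII-12m, where a floor of 3 counts per library makes it at least 10.7-fold lower. For IVM-MII-12m the difference was -1.37, and -0.48 without its oocyte 3. Compared with IVM-MII-12m, MSC-IVM-MII-12m was at least 5.72-fold lower by the same floor, with a difference of -1.79. Without IVM-MII-12m oocyte 2 that difference was -0.89.

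**Figure D3:**
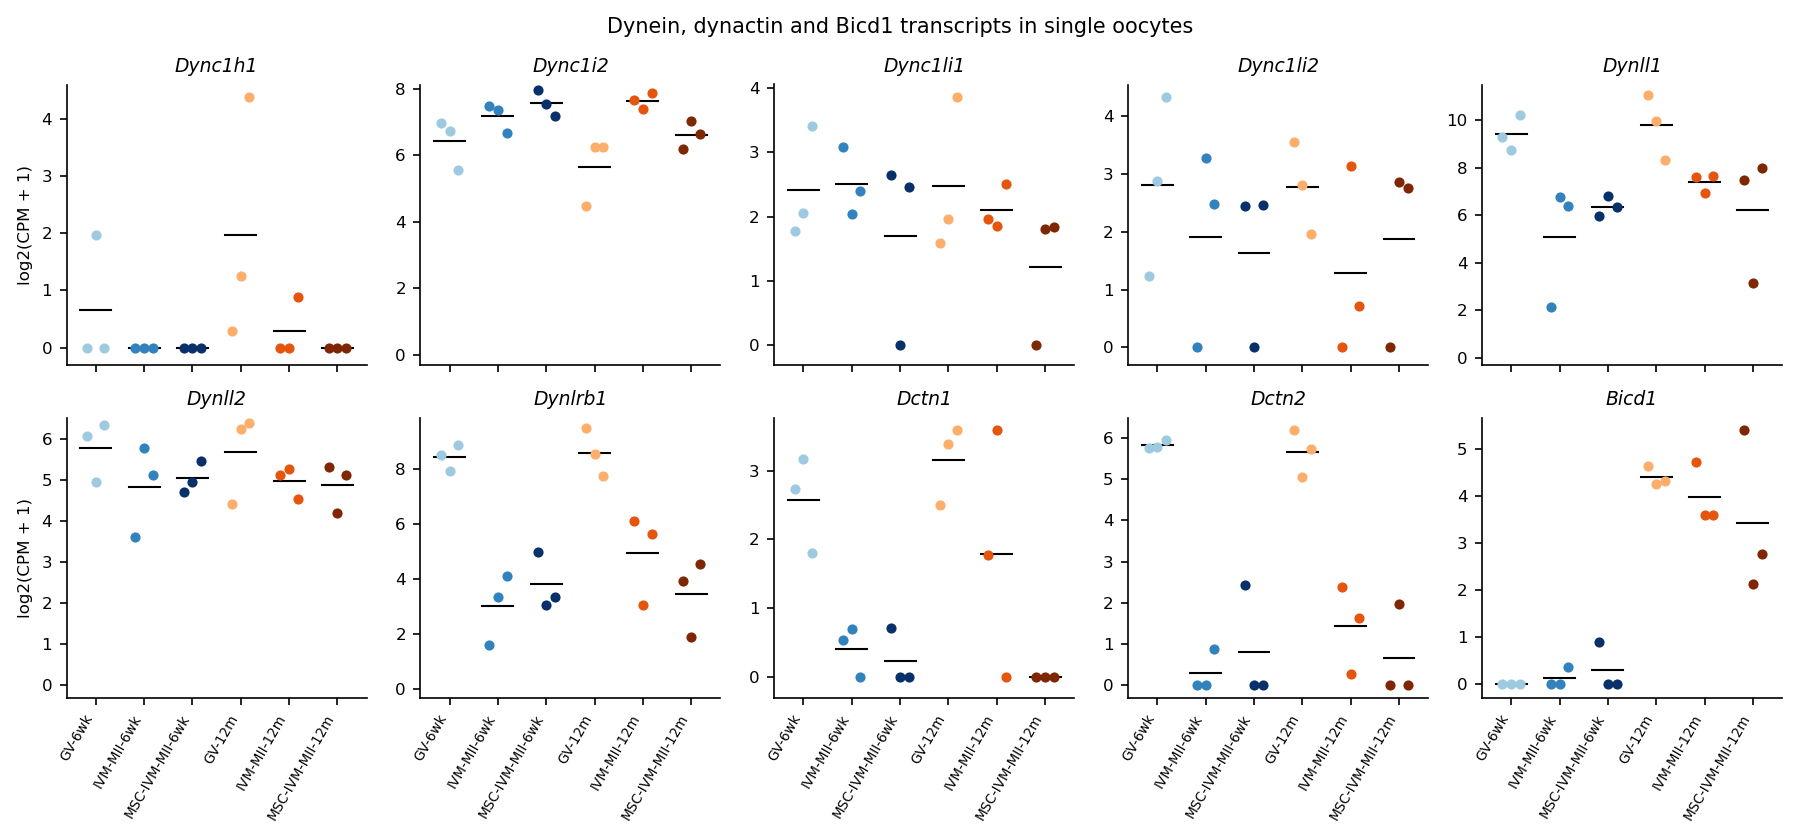
log2(CPM + 1) of each of the 10 genes in the 18 oocytes, 1 panel per gene with its own vertical scale; points are single oocytes and black bars the mean of 3. Dynll1, Dynlrb1 and Dctn2 are higher in all GV oocytes than in any metaphase II oocyte, and Bicd1 is near 0 in every 6wk oocyte.

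Bicd1, on chromosome 6 (149408886 to 149563329, plus strand), encodes a coiled-coil adaptor that couples dynein and dynactin to Rab6 vesicles and other cargo. It separated the ages and not the stages. GV-12m oocytes had 23.8, 17.98 and 18.8 CPM, IVM-MII-12m oocytes 25.3, 11.0 and 11.0, and MSC-IVM-MII-12m oocytes 41.0, 3.33 and 5.74. Of the 9 oocytes aged 6wk, 7 were at 0, IVM-MII-6wk oocyte 3 had 0.285 CPM (1 count) and MSC-IVM-MII-6wk oocyte 1 had 0.845 CPM (4 counts). All 12m oocytes lay above all 6wk oocytes.

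The difference between 12m and 6wk for GV, IVM-MII and MSC-IVM-MII was 4.40, 3.84 and 3.13 on the log2(CPM + 1) scale. In GV oocytes, with 374 counts at 12m and none at 6wk, the fold was at least 23.3 with a floor of 3 counts per library. In IVM-MII, with 316 counts against 1, the ratio scaled by library was 196. Its exact 95% interval, 35.0 to 7782, again treats reads as independent and leaves out the spread over oocytes. In MSC-IVM-MII the ratio of mean CPM was 59.3, from a 6wk mean of 0.282 CPM that rests on 4 counts in 1 oocyte. It was 16.1 without MSC-IVM-MII-12m oocyte 1, and 18.8 when the 6wk mean was set to the floor of 0.891 CPM. Leaving out single oocytes kept the 3 differences at or above 2.14, the lowest without MSC-IVM-MII-12m oocyte 1. On log2(TPM + 1) they were 1.72, 1.16 and 1.13, since the TPM of this long transcript lies near the pseudocount of 1. Since the title prefixes of the 2 ages do not overlap, age and whatever the prefixes stand for cannot be told apart.

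The deposited lengths bear on which Bicd1 transcript was counted. The gene has 9 transcripts in the deposited files, all in GENCODE M21. Where Bicd1 had no count the deposited length was 4632.78 bases, the plain mean of the 9. In 8 of the 11 oocytes with counts it was 10443 bases, exactly the length of Bicd1-209, a single-exon transcript at chr6:149408886-149419328 annotated as a retained intron. Among these 8 were IVM-MII-6wk oocyte 3 with 1 count and MSC-IVM-MII-6wk oocyte 1 with 4, too few to say much. The 3 exceptions were GV-12m oocyte 2 at 10081 bases, GV-12m oocyte 3 at 4981 and MSC-IVM-MII-12m oocyte 1 at 8785. They held 143, 124 and 92 of the 840 Bicd1 counts. Of the bases of Bicd1-209, 9687 (92.8%) lie in intron 1 of the coding transcript Bicd1-202, which has 9 exons and 9667 bases. Intron 1 is 74342 bases long. So in 8 of 11 oocytes the deposited counts were assigned wholly to a transcript that runs from the first exon into the first intron, and none to the spliced coding transcripts. The expected counts of Bicd1 were not whole numbers in the 12m oocytes (107.42, 143.14 and 124.46 in GV-12m), as when reads are split with other genes.

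Both sequences that follow show where Bicd1-209 starts and where it runs into intron 1. Where within Bicd1-209 the reads lie cannot be seen from the deposited counts. The first is the start region of Bicd1 from RefSeq (GRCm38.p6, chr6:149408734-149409033, plus strand), with the bases that belong to Bicd1-209 in capitals. The second is the end of exon 1 of Bicd1-202 at chr6:149409582-149409701 (plus strand), with intron 1, which Bicd1-209 keeps, in capitals; it was read from the GENCODE M21 transcript.
Bicd1 start region: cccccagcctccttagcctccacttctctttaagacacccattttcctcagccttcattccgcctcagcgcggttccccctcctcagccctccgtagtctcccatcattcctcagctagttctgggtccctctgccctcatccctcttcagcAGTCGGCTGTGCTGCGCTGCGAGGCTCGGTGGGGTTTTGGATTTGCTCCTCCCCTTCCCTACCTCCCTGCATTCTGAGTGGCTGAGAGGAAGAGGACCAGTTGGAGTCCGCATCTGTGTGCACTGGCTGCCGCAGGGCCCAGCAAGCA
Bicd1 exon 1 and intron 1 boundary: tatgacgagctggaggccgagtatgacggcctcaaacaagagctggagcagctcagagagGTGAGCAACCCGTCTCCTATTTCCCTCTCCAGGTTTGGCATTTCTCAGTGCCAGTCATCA

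**Figure D4:**
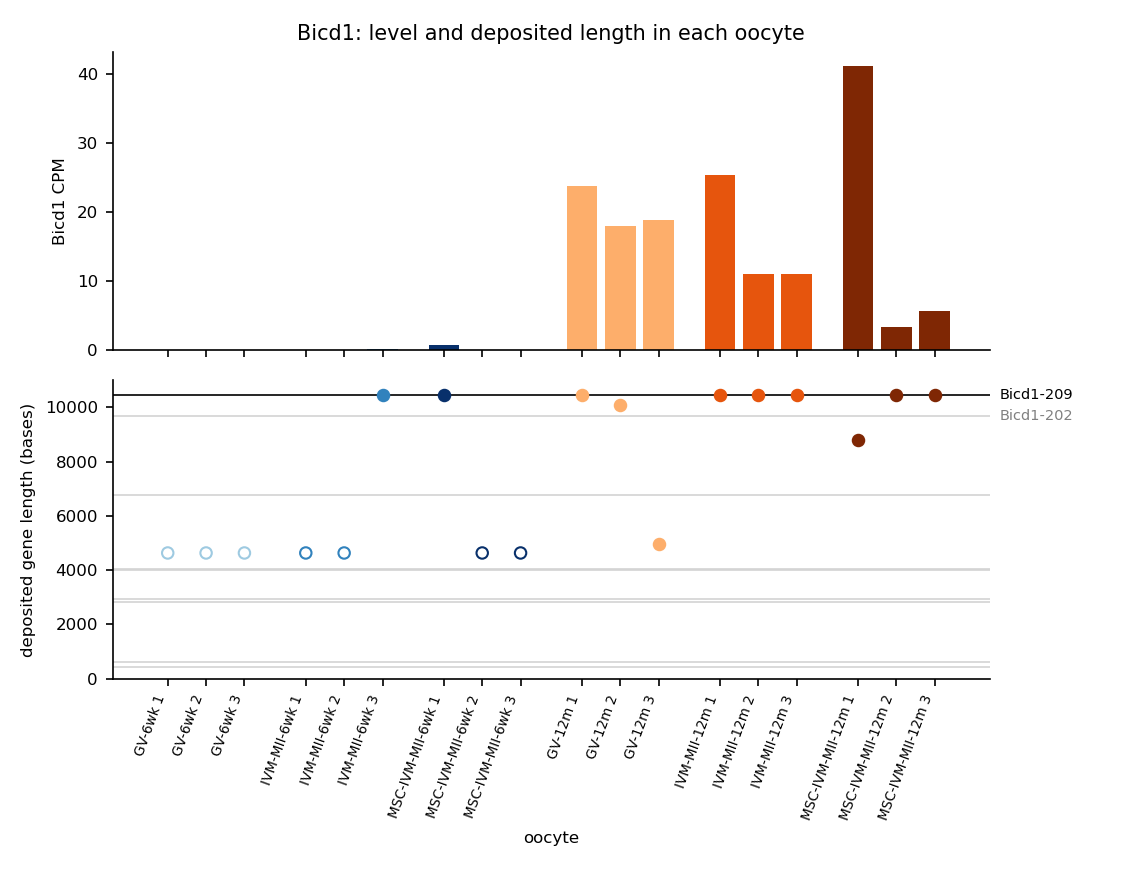
Bicd1 in each of the 18 oocytes: CPM as bars (top) and deposited gene length in bases (bottom), with open circles where the count was 0; horizontal lines are the annotated lengths of the 9 Bicd1 transcripts, black for Bicd1-209. Counts are all but confined to 12m oocytes, and 8 of the 11 filled circles lie on the line at 10443 bases.

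Other genes had nearly the same pattern as Bicd1. Among 5761 genes the 3 most alike over the 18 oocytes were Zfp940, a zinc finger gene (r = 0.93), Cgref1, an EF-hand protein gene (0.93), and Snhg14, a long noncoding host gene of small nucleolar RNAs (0.84). Zfp940 had group means of 2.05 to 3.26 CPM at 6wk and 30.7 to 35.6 at 12m, Cgref1 of 1.03 to 1.95 and 25.0 to 32.9, and Snhg14 of 3.03 to 7.30 and 29.5 to 44.8. These genes were picked for their likeness to Bicd1 in the same oocytes. By group mean, the Bicd1 locus was thus not the only one to differ between the ages in these libraries.

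Maturation without MSC was compared over the 9 measured members and all tested genes. At 6wk, 4 members were lower by at least 1 in IVM-MII than in GV (Dynll1, Dynlrb1, Dctn1 and Dctn2), where 39.3% of all 12037 genes were lower by as much, and none was higher, against 16.7% of all genes. The members' median difference was -0.95, beside -0.52 for all genes. At 12m, 5 were lower (the same 4 and Dync1li2), with 39.0% of all genes, and 1 was higher (Dync1i2), with 16.1%. The median was -1.37, beside -0.52.

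With MSC, 5 members were lower than in GV at 6wk (Dynll1, Dynlrb1, Dctn1, Dctn2 and Dync1li2), where 35.2% of all genes were, and 1 was higher (Dync1i2), against 21.4%. The median was -1.18, beside -0.29 for all genes. At 12m, 5 were lower (Dynll1, Dynlrb1, Dctn1, Dctn2 and Dync1li1), against 41.7% of all genes, and none was higher, against 16.7%, with medians of -1.25 and -0.60. The comparisons with and without MSC share their GV oocytes. Between GV and metaphase II between 35.2% and 41.7% of all genes passed the limit downward, so the members' counts sit not far above the background. Among the members the differences of Dynll1, Dynlrb1 and Dctn2 on log2(CPM + 1) were the largest in each of these 4 comparisons. That scale understates genes of low level. By fold, Dctn1 was lower by more than Dynll1 in 3 of the 4, at 15.1-fold in IVM-MII-6wk, 20.3-fold in MSC-IVM-MII-6wk and at least 10.7-fold in MSC-IVM-MII-12m. The 6wk folds rest on 4 and 3 counts of Dctn1 after maturation. Their means, 0.357 and 0.211 CPM, lay under the floors of 0.821 and 0.891 CPM, so the 6wk order against Dynll1 is uncertain. Within title prefixes the 12m differences of Dctn1, -2.15 and -3.49, were larger than those of Dynll1.

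Between matured oocytes with and without MSC, 1 member was past the limit at 6wk: Dynll1 was higher with MSC, where 16.2% of all genes were, and none was lower, against 5.22%. At 12m, 4 were lower with MSC (Dync1i2, Dynll1, Dynlrb1 and Dctn1), against 15.2% of all genes, and none was higher, against 10.3%. The medians were 0.20 at 6wk, as for all genes, and -0.89 at 12m, beside -0.10. Each of these 5 calls was lost, or changed its direction, without a single oocyte named above. The MSC and IVM libraries of 12m also differed in depth, with 1914072 counts in the shallowest MSC oocyte and 4583562 in the shallowest without, and the part of depth was not tested.

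Between the ages, 1 member was higher at 12m in GV oocytes (Bicd1, with 9.46% of all genes) and none was lower (4.28%). In IVM-MII, 5 were higher at 12m (Bicd1, Dynll1, Dynlrb1, Dctn1 and Dctn2), against 18.1% of all genes, and none was lower, against 9.08%. In MSC-IVM-MII, 1 was higher (Bicd1, 7.73%) and none lower (15.2%). The median differences of the members were 0.06, 1.13 and -0.17, beside 0.12, 0.16 and -0.12 for all genes.

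In IVM-MII the age difference was 2.31 for Dynll1 and 0.83 without IVM-MII-6wk oocyte 1, and 1.91 for Dynlrb1, 1.20 without the same oocyte. Dctn1 differed by 1.38, and by 0.48 without IVM-MII-12m oocyte 2. Dctn2 differed by 1.13, from 46 counts at 12m and 3 at 6wk, and by 0.66 without IVM-MII-12m oocyte 1 and 0.99 without IVM-MII-6wk oocyte 1 or 2. Of the 5, Bicd1 and Dynlrb1 passed the limit whichever oocyte was left out. For Dynlrb1 the ages overlapped, with 7.41 CPM in IVM-MII-12m oocyte 2 and 16.3 CPM in IVM-MII-6wk oocyte 3.

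**Figure D5:**
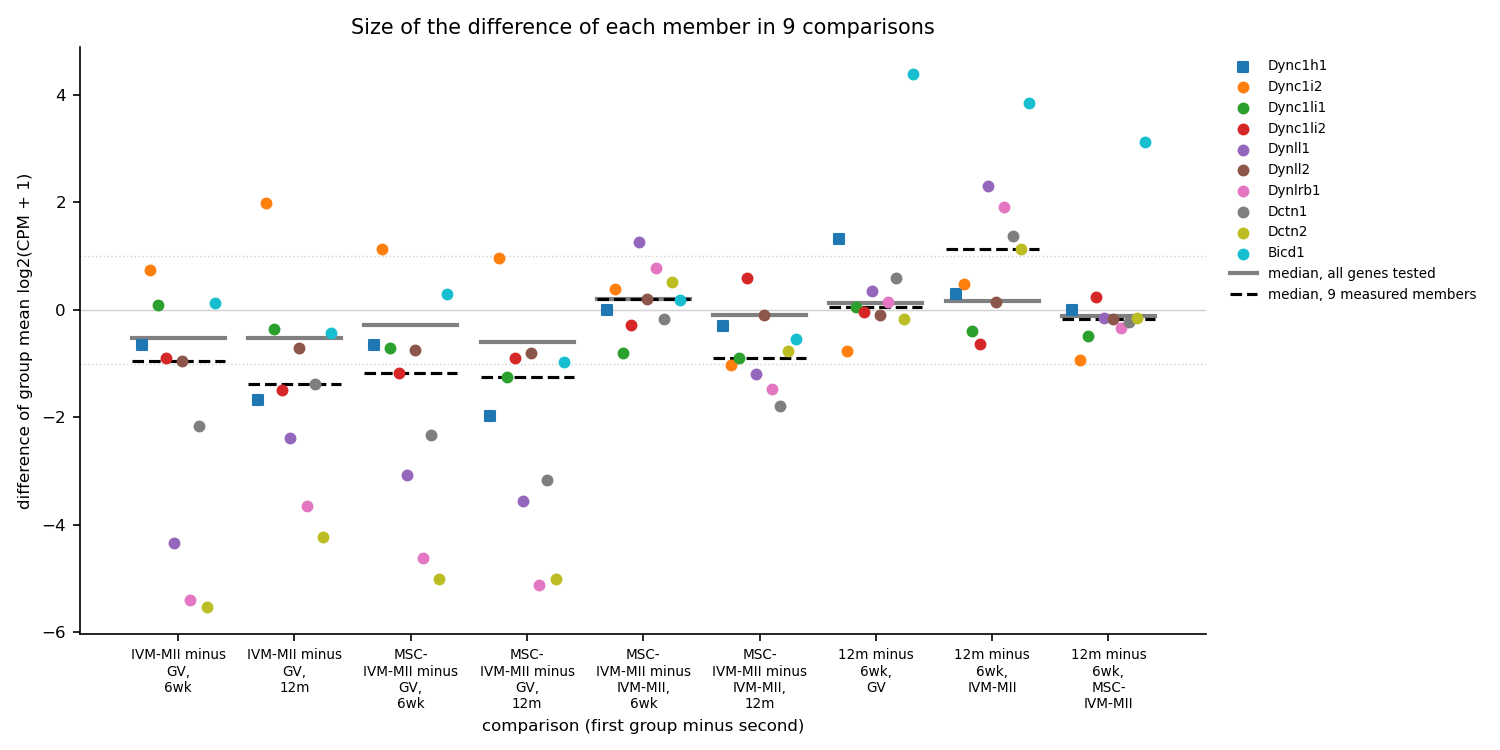
Difference of group mean log2(CPM + 1) of each gene in the 9 comparisons, first group minus second; dotted lines mark the limit of 1 in either direction, grey bars the median of all 12037 genes and dashed bars that of the 9 measured members, with Dync1h1 drawn as a square because it did not pass the filter. Dynll1, Dynlrb1 and Dctn2 lie lowest in the 4 comparisons with GV, and Bicd1 highest in the 3 between ages.

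The rest of the dynein machinery was set beside the members through 50 further genes, of which 44 passed the filter. At 6wk, 16 were lower and 8 higher in IVM-MII than in GV, and at 12m 13 were lower and 11 higher. With MSC, 12 were lower and 11 higher at 6wk, and 17 and 12 at 12m. For all genes the shares were 35.2% to 41.7% lower and 16.1% to 21.4% higher, as given above. The Tctex light chain genes Dynlt1a, Dynlt1b, Dynlt1c and Dynlt1f were lowest of all in each comparison with GV. Dynlt1b, for example, had a mean of 406 CPM in GV-6wk and 6.40 in IVM-MII-6wk, and 458 in GV-12m and 22.4 in IVM-MII-12m. These 4 genes are near-identical copies between which reads can be split, so they cannot be taken as separate observations.

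Among the dynein-1 subunits outside the members, 4 of 6 measured genes were lower in each of the 4 comparisons with GV, namely these Tctex genes, and 2 were higher in IVM-MII-12m than in GV-12m, Dync1i1 and Dynlt3, which are named after their values were seen. Dync1i1 averaged only 11.0 CPM there and its oocytes overlapped those of GV-12m. Of the 10 other dynactin subunits, 4 to 6 were lower and at most 1 higher, beside 35.2% to 41.7% of all genes lower. Of 13 measured adaptor genes, 3 to 6 were higher and 2 or 3 lower, beside 16.1% to 21.4% of all genes higher. Hook2, an adaptor gene of the Hook family, had 49.1 CPM in IVM-MII-6wk and 53.2 in MSC-IVM-MII-6wk, against 11.0 in GV-6wk. At 12m it had 16.2 CPM in GV, 58.4 with MSC and 33.7 without, and the difference of IVM-MII from GV, 0.99, did not reach the limit. Rab6a, the small GTPase on the vesicles that Bicaudal D proteins bind, had 226 and 257 CPM in these matured groups against 43.3 in GV-6wk, and 110 and 261 against 42.6 at 12m. Single oocytes carried part of this. IVM-MII-6wk ranged from 55.6 to 491 CPM, with a mean of 93.3 without oocyte 1, and MSC-IVM-MII-12m from 133 to 502.4 CPM, with a mean of 140 without oocyte 2. The IVM-MII oocytes overlapped those of GV at both ages, and those with MSC did not. Mapre1, which encodes the plus-end binding protein EB1, had 311 CPM in IVM-MII-6wk and 101.01 in GV-6wk, and 296 and 111 at 12m. All these are levels of mean CPM.

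Between matured oocytes, 13 of the 44 genes were higher with MSC at 6wk (16.2% of all genes) and none was lower (5.22%), while at 12m 3 were higher (10.3%) and 10 lower (15.2%). At 12m the lower ones included Capza1, a capping protein subunit of dynactin, with 7.69 against 23.3 CPM, and Zwilch, part of the complex that brings dynein to kinetochores, with 8.40 against 30.8 CPM; neither overlapped between the groups. Between ages, 4 were higher and 1 lower at 12m in GV oocytes, beside 9.46% and 4.28% of all genes. In IVM-MII 15 were higher and 0 lower, beside 18.1% and 9.08%, and in MSC-IVM-MII 2 and 7, beside 7.73% and 15.2%. The GV and MSC-IVM-MII counts lie near the shares over all genes. IVM-MII-6wk oocyte 1, with its high share of counts from long genes, is in both the IVM-MII age comparison and the 6wk MSC comparison.

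The last 100 bases of each member's longest coding transcript were searched, on the transcript strand, for TTTTAT and TTTTAAT, which are forms of the cytoplasmic polyadenylation element. Neither was found in any of the 10, while 19.4% of 10819 genes with a coding transcript held one. In this window AATAAA, the main polyadenylation signal, was present in 7 members and in 66.5% of genes. Among oocytes with counts, the searched transcript did not always have the deposited length. The lengths were equal in 16 of 16 for Dync1li1, 14 of 18 for Dynll2 and 4 of 5 for Dync1h1. For the other members, among them Bicd1, Dctn1 and Dynll1, they were equal in no oocyte. The end of the retained-intron transcript that held the Bicd1 counts in 8 of 11 oocytes was not searched. Genes can use other ends than the annotated one, and the match of letters is a description only.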

How the data were processed

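The 18 deposited tables, 1 per oocyte, list 47069 Ensembl genes and hold, per the file headers, a length, an effective length, an expected count, TPM and FPKM for each, laid out as RSEM does. The build was GRCm38.p5 (mm10), per the submitters' processing notes, which also name Cufflinks, TopHat2 2.1.1, Trim Galore 0.4.5 and FastQC 0.11.8. What made the expected counts is not given in the sources used here. As deposited, these expected counts split reads shared between genes; the deposited TPM divides by transcript length; FPKM was not used. Transcript lengths as deposited were compared with GENCODE M21, and 46574 gene identifiers matched it.

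Expected counts were rounded, filtered with filterByExpr by group and given TMM factors (edgeR 4.0.16, R 4.3.3). A difference is that of group mean log2(CPM + 1), with a pseudocount of 1, which understates low genes; a gene was past the fold at a difference of at least 1. Folds are ratios of mean CPM, or lower bounds, with 3 counts set per library, where a group was at 0. Reads carry no molecular identifiers, and intervals and floors treat each read as an independent count. They leave out amplification and the spread over oocytes, so the intervals are too narrow. The difference of group means was tested on simulated negative binomial counts, summarised for genes averaging at least 20 CPM. The filter, the scaling and members below that level were not covered. DESeq2 1.42.0 gave alternative size factors; other alternatives were library totals, TMM without mitochondrially encoded genes, deposited TPM, a pseudocount of 0.1, no filter, single oocytes left out and values within title prefixes. The remaining steps ran in Python 3.11.15 with pandas 2.3.3, NumPy 2.4.6, Matplotlib 3.10.9 and SciPy 1.17.1.

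Groups followed the labels' cell type, age and co-culture. All 10 members are named. Of 50 other dynein genes, up to 4 each way with the largest difference could be named, if the higher group averaged 20 CPM or more, and for Bicd1, Dync1h1 and Dynll1 the 3 genes with the highest correlation. Dync1i1 and Dynlt3 are named outside this rule. Leaving out the highest oocyte for Rab6a, and both alternatives for the Bicd1 ratio with MSC, were chosen after seeing the data. The members and lists were chosen with earlier results of these data known. Promoter sequences came from RefSeq (GRCm38.p6), where 8 of the 10 genes had an entry. No pair of oocytes of a group agreed within sampling noise.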

Additional observations from a re-analysis of the deposited data

How the results depend on the processing

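No paired analysis was possible because the oocytes of a group were numbered only by their order and the results come from no test; the values within title prefixes average differences between oocytes whose titles begin alike. Of 1140 alternative values for the 90 differences of single members, 1112 stayed within 1 SD over oocytes of the reported value and 26 moved further. A leave-one-out value lies within 1 SD by construction, since leaving out 1 of 3 oocytes cannot shift a group mean that far. The count of 1112 therefore says little about the weight of single oocytes. Of the 54 differences smaller than 1, 27 changed sign with some single oocyte left out and carry no direction. Of the 36 past the limit, 2 changed sign: Dynll1 with against without MSC, to -0.22 at 6wk without IVM-MII-6wk oocyte 1 (leave-one-out range -0.22 to 2.096) and to 0.34 at 12m without MSC-IVM-MII-12m oocyte 2 (-2.08 to 0.34). The members' median moved with a pseudocount of 0.1, to -1.81 for IVM-MII against GV at 6wk, -2.38 at 12m, -2.31 for MSC-IVM-MII against GV at 12m and 2.05 for age in IVM-MII; a smaller pseudocount stretches low values by construction. For IVM-MII against GV at 12m it was -0.71 with TPM and ran from -2.15 to -0.56 with single oocytes left out; the cause was not tested.

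Counts of members past the fold, in either direction, moved from 4 to 7 for IVM-MII against GV at 6wk within title prefixes. They moved from 1 to 2 for MSC at 6wk with a pseudocount of 0.1 or within prefixes. With single oocytes left out they ran from 1 to 3. Over all 12037 genes, 1956 were higher and 628 lower in this comparison, and 3505 and 1294 with the pseudocount of 0.1. Genes past the fold were not counted over all genes within prefixes or with oocytes left out. For MSC at 12m the members' count moved from 4 to 1 with TPM. All genes went from 1238 higher and 1828 lower to 1116 and 1085. For age in GV the members' count moved from 1 to 2 without a filter (1 to 3 with oocytes left out). All genes went from 1139 higher and 515 lower to 1502 and 568 of 21685. For age in IVM-MII the members' count moved from 5 to 3 with TPM. All genes went from 2173 higher and 1093 lower to 1346 and 1217. For age in MSC-IVM-MII the members' count moved from 1 to 2 with TPM (1 to 3 with oocytes left out). All genes went from 930 higher and 1831 lower to 708 and 1533. The share of higher genes among all past the fold moved from 68.9% to 43.9% with TPM for age in GV, from 66.5% to 52.5% for age in IVM-MII and from 40.4% to 50.7% for MSC at 12m. The median of all genes moved by more than 0.1 in some comparisons with TPM (-0.52 to -0.29 for IVM-MII against GV at 6wk, -0.60 to -0.31 for MSC-IVM-MII against GV at 12m) and with DESeq2 size factors (-0.52 to -0.68 for IVM-MII against GV at 12m). Dync1h1, Dctn1 and the light intermediate chain genes rest on few counts; the part of depth was not tested.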
